A study of Mus musculus with 14 samples.

Results

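RUNX1 occupancy was compared between Chd7 knockout (KO) and wild-type (WT) G1ER cells. All ChIP-seq samples whose labels name a RUNX1 antibody were taken, which are 2 of the 14 samples of the series. They gave 1 peak list each, with 28952 WT and 35281 KO regions, or 64233 of the 541869 regions in the peak lists of the series. G1ER is a mouse erythroblast line without endogenous GATA1, in which estradiol switches on an added GATA1 fusion protein. Both lines were kept in medium with erythropoietin and stem cell factor. Estradiol for 48 hours is named for a differentiation assay. The labels do not say whether the cells used for ChIP had received it, nor how many clones the knockout line stands for. The other samples are GATA2 ChIP, ChIP of elongating RNA polymerase II (phosphorylated at serine 2, S2P) and inputs of the same cells.

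RUNX1 is a transcription factor of the Runt family that binds DNA together with its partner CBFB. It is needed for the emergence of blood stem cells and acts later in megakaryocytes and lymphocytes. CHD7 is an ATP-dependent chromatin remodeller found at enhancers and promoters, and the title of the series names an interaction of CHD7 with RUNX1 in blood cell differentiation. RUNX1 and its partner recognise a short sequence, TGTGGT or TGCGGT, while ETS factors, which often sit beside RUNX1 in blood cells, recognise CCGGAAG.

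The printed promoter stretches show both kinds of sequence under RUNX1 summits. Each has 120 bases upstream of a gene start, 5′ to 3′ on the strand of the gene, from RefSeq (GRCm38.p6), and outside any listed gene. The first pair are the strongest WT promoters off chromosomes 5 and 18 with a RUNX sequence within 60 bp of the summit, which capitals mark on either strand. Dohh, the deoxyhypusine hydroxylase gene (chr10:81384314-81384433, plus strand), held 243 WT and 253 KO fragments at its summits. Rbx1, which encodes a subunit of cullin ubiquitin ligases (chr15:81466175-81466294, plus strand), held 240 WT and 250 KO fragments. The Dohh stretch also holds the ETS sequence at 2 places, left in lower case. The middle of the nearer one lies 25 bp from the WT summit, closer than that of the RUNX sequence (37 bp). Of the 6 stretches shown for a RUNX sequence, that of Dohh is the one that holds both.
Dohh: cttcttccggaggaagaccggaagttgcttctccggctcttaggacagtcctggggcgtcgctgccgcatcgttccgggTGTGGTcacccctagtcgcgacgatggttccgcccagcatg
Rbx1: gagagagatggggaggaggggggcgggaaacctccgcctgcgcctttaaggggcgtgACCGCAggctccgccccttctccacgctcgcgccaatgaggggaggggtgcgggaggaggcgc
The next pair are the strongest with an ETS sequence, in capitals, within 60 bp of the summit and no RUNX sequence in the 300-base promoter. Wasl, an actin regulator gene (chr6:24665042-24665161, minus strand), held 268 and 272 fragments, and Pnn, the pinin gene (chr12:59066799-59066918, plus strand), held 253 and 262.
Wasl: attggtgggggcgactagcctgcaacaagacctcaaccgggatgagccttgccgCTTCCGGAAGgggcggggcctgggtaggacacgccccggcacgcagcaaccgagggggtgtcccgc
Pnn: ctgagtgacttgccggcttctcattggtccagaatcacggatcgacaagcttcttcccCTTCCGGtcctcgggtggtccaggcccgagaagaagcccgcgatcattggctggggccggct
The following pair are promoter windows bound in KO alone, the strongest of that kind with a RUNX sequence (capitals) near the summit. Mrps5, a mitochondrial ribosomal protein gene (chr2:127587201-127587320, plus strand), had a KO summit of 88 fragments. Got2, the mitochondrial aspartate aminotransferase gene (chr8:95888408-95888527, minus strand), had one of 52.
Mrps5: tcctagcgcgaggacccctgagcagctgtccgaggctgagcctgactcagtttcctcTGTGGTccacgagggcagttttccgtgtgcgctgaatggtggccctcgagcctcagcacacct
Got2: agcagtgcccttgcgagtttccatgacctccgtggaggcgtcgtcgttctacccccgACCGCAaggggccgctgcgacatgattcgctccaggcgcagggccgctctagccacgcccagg
The last pair, bound in WT alone, were weaker, with 19 fragments at Sox15, a transcription factor gene (chr11:69654830-69654949, plus strand), and 15 at Mfge8, which encodes the phagocytosis factor lactadherin (chr7:79149074-79149193, minus strand).
Sox15: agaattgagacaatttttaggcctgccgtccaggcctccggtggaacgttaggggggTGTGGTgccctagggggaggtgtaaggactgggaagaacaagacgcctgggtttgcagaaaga
Mfge8: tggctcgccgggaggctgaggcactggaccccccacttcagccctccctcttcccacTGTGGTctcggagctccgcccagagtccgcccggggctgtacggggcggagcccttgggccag

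Across all promoters, the RUNX sequence was about as frequent with RUNX1 as without it, whereas the ETS sequence was not. Promoters were windows of 250 bases upstream and 50 downstream of 21263 listed starts of coding genes, and starts on chromosome 18 were not used here. TGTGGT or TGCGGT, searched on both strands, stood in 22.1% (21.2 to 23.1) of the 6983 windows that met a peak in both lists, 17.6% (15.4 to 19.9) of the 1167 met in KO alone, 20% (14.0 to 27.2) of the 155 met in WT alone and 21.6% (20.9 to 22.4) of the 12958 met in neither, as in 21.6% of all windows. The letters counted apart went opposite ways: TGTGGT stood in 11.9% of the windows bound in both and 17.0% of those bound in neither, and TGCGGT in 11.1% and 5.46%. CCGGAAG stood in 24.3% (23.3 to 25.4) of the windows bound in both, 20.8% (18.5 to 23.3) in KO alone, 16.1% (10.7 to 22.9) in WT alone and 3.80% (3.47 to 4.14) in neither. GGGCGG, the GC box of SP and KLF factors, stood in 74.0%, 56.0%, 49.7% and 30.3% of the same 4 sets, and AGATAA, which GATA factors recognise, in 5.58%, 5.66%, 5.16% and 12.3%. Base composition moved with these shares, with a median G+C of 62.3% in windows bound in both, 60.7% in KO alone, 58.3% in WT alone and 51.7% in neither, and its part in them was not tested. Where a promoter was bound in both lists, the median summit held 63 WT and 79 KO fragments with a RUNX sequence and 61 and 75 without one.

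Most RUNX1 sites were present in both genotypes, and the KO list was longer. Of the WT peaks 86.6% (86.2 to 87.0) overlapped a KO peak by at least 1 bp, and of the KO peaks 69.6% (69.1 to 70.1) overlapped a WT peak. The KO list held 1.22 (1.20 to 1.24) times as many peaks. Intervals are at 95%: exact Clopper-Pearson for shares and ratios of counts, exact Poisson for fragments, and from the order of the site values for medians. They cover counting error over fragments, peaks or sites only, and sites of 1 list are not replicates. PCR copies of 1 molecule cannot be told apart without molecular identifiers. With 1 library per genotype there is no replicate spread, so every difference reported is one between 2 lists and was not tested between genotypes.

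The number of immunoprecipitated fragments at each summit served as the measure of strength. Median summits held 38 fragments in WT and 37 in KO, and the most fragments were 286 and 282, which is 2 times the smallest peak width (143 and 141 bp), a ceiling near which differences are understated. Sites found in 1 list alone were weak: the 3884 WT-only peaks had a median of 19 fragments and the 10720 KO-only peaks 22, against 43 and 52 for the shared peaks of each list. Where 1 WT peak met 1 KO peak and no other (23560 pairs), the summits lay a median of 17 bp apart, and the KO peak was the wider in 69.7% of pairs. Apart from these, 658 KO peaks overlapped 2 or more WT peaks, and 181 WT peaks overlapped 2 or more KO peaks. A lower peak number at a gene can thus come from joined peaks as well as from sites not found. As a check of the cell type, 9 of 10 erythroblast markers carried S2P in both genotypes (Slc4a1, the band 3 gene, did not), against 1 of 4 mast cell markers (Cpa3), 1 of 4 megakaryocyte markers (Itga2b), 1 of 4 myeloid markers (Csf1r) and 0 of 4 lymphoid markers. In the longer lists of these lineages, used further on, 7 of 15 mast cell genes, 5 of 20 megakaryocyte genes, 4 of 18 myeloid genes and 2 of 20 lymphoid genes carried S2P in each genotype, where 45.8% of all genes did in WT and 46.1% in KO. Kit, counted among the erythroblast markers, is also in the longer mast cell list. RUNX1 had no peak at Chd7 in either list, and S2P covered 0% of that gene in WT as in KO. These lists thus give no check of the genotype labels.

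Gene starts had the highest share of WT sites found again in KO. Peaks with a summit within 1 kb of a gene start made up 31.6% (31.1 to 32.2) of the WT list and 32.2% (31.7 to 32.7) of the KO list. Of the WT peaks at starts 95.7% (95.3 to 96.1) were shared, against 79.9% to 83.1% in the other classes, namely far gene ends, gene bodies and sites within or beyond 50 kb of a gene. The peaks found in 1 list differed by position: 395 WT-only peaks lay at starts, 10.2% (9.24 to 11.2) of that set, and 2926 KO-only peaks, 27.3% (26.5 to 28.1) of theirs. The ratio of KO to WT peak numbers was 1.24 (1.21 to 1.28) at starts, 1.48 (1.32 to 1.66) at far ends, 1.22 (1.19 to 1.25) in gene bodies and 1.17 to 1.18 outside genes.

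Shared summits at gene starts also shifted further toward KO than summits elsewhere. Off chromosome 5, with each list divided by its lowest background, the median log2 of KO over WT fragments was 0.25 (0.24 to 0.26) over 7356 pairs at starts and 0.12 to 0.13 in the other classes, where it turned to -0.05 when the list was centred on the median of all shared summits and that at starts fell to 0.08. On the deposited fold enrichment, which divides by the local background, the medians were 0.19 at starts and 0.09 to 0.12 elsewhere. KO was the higher in 83.7% of the pairs at starts and in 61.8% to 65.0% of those elsewhere. The local background of the same summits had a median log2 of 0.11 at starts, -0.01 at far ends and 0.02 in gene bodies. It was 0.02 within 50 kb of a gene and 0.09 beyond, and its part was not tested.

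Summits away from starts spread more widely in both directions. At starts 5% of pairs lay below a log2 of -0.22 and 5% above 0.76, while in gene bodies these limits were -0.64 and 0.78, and beyond 50 kb from genes -0.80 and 0.95. Over the pairs off chromosome 5 with at least 20 fragments in either list, 2.06% were at least 2-fold higher in KO and 1.2% at least 2-fold lower, and these percentages are the background for the sites named here. At starts 91 pairs (1.25%) were at least 2-fold higher and 11 (0.151%) at least 2-fold lower, while beyond 50 kb from genes 67 (5.03%) and 39 (2.93%) were.

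The difference between starts and other positions was seen at low and middle strength. Among sites with 21 to 40 WT fragments the median log2 was 0.36 at starts and 0.10 elsewhere, and among those with 41 to 80 it was 0.26 and 0.07. At 121 or more WT fragments the medians were 0.13 and 0.12. The classes are cut on the WT count, which by construction gathers low WT values in the weakest class, where the medians were 0.54 and 0.30. Sharing differed between the same classes: of WT peaks with 21 to 40 fragments 92.99% were shared at starts and 83.2% elsewhere, and of KO peaks of that strength 45.4% at starts and 61.5% elsewhere.

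**Figure D1:**
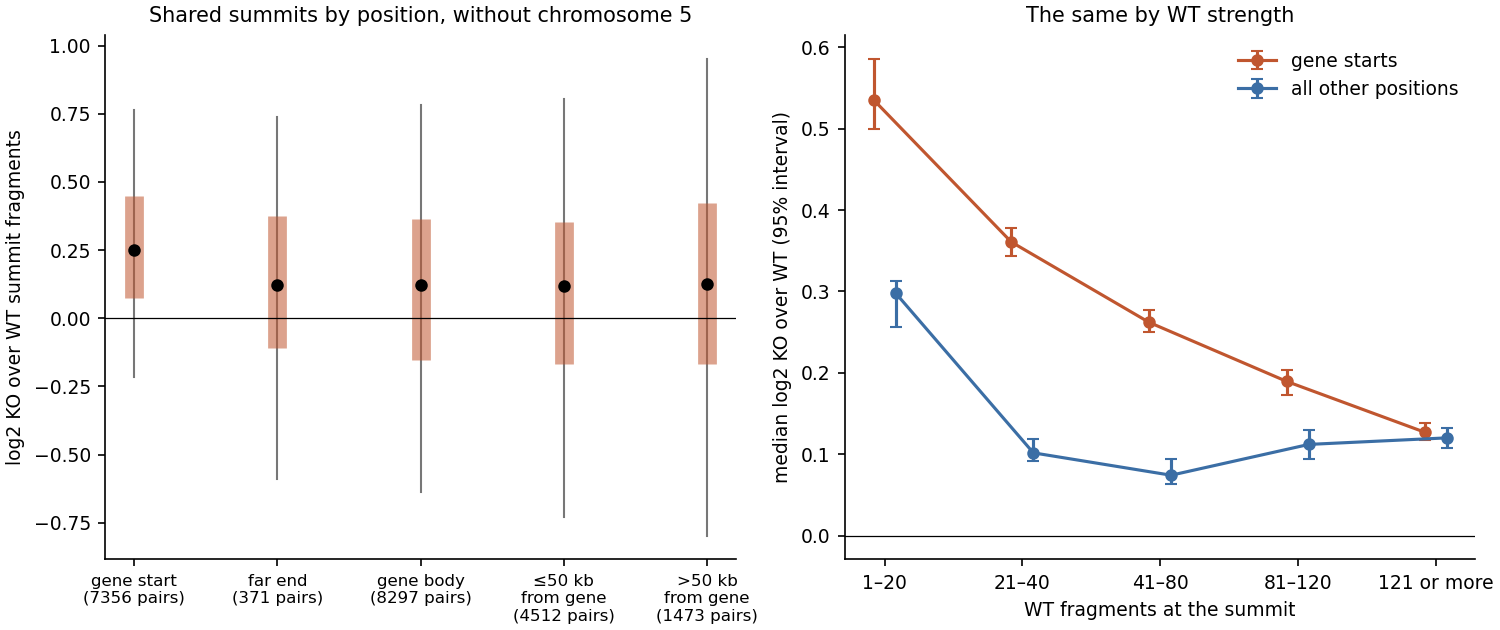
Left, log2 of KO over WT summit fragments of shared pairs by position, with the median (dot), the middle 50% of pairs (bar) and the range from 5% to 95% (line). Right, the median with its 95% interval by the number of WT fragments (x axis), at gene starts and at all other positions. The starts have the highest median (0.25) and the narrowest range, and the curves meet at 121 or more WT fragments.

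Around gene starts RUNX1 summits gathered just upstream, and peaks called in KO alone lay further into the gene. Where the strand was listed, the WT summits lay a median of 33 bp upstream of the start (65.7% upstream, 77.4% within 250 bp), and the KO summits a median of 23 bp upstream (59.1% upstream). The 2401 KO-only peaks lay a median of 67 bp downstream, with 39.5% upstream and 43.8% within 250 bp. The 324 WT-only peaks lay a median of 4 bp downstream, with 49.1% upstream and 48.5% within 250 bp. Between 300 and 400 bp downstream fell 6.71% of the KO-only and 5.86% of the WT-only peaks, against 2.25% of all WT and 3.05% of all KO peaks. A raised share there was thus common to the unshared peaks of both lists.

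**Figure D2:**
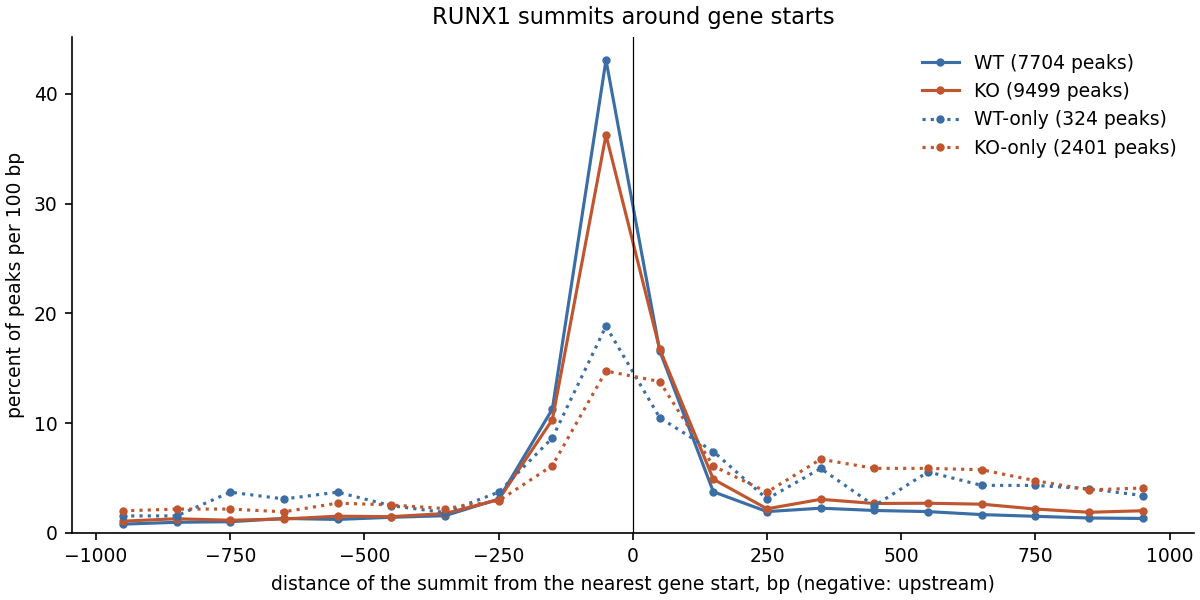
Percent of RUNX1 peaks per 100 bp (y axis) by the distance of the summit from the nearest gene start in bp (x axis, negative upstream), for the whole lists (solid) and for peaks of 1 list alone (dotted). Both whole lists peak in the 100 bp upstream of the start (43.1% of WT and 36.2% of KO summits), and both dotted lines stay raised downstream.

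Most bound genes were bound in both genotypes, and more of them had a higher number of peaks in KO than a lower one. A gene counted as bound when a summit lay in it or within 5 kb of either end. RUNX1 bound 50.1% of 21887 coding genes in WT cells and 52.7% in KO cells: 10663 in both, 294 (1.34%) in WT alone and 873 (3.99%) in KO alone. With the KO list cut to the number of WT peaks these were 478 and 586. The strongest peak at a gene bound in both held a median of 68 WT and 84 KO fragments, whereas genes bound in 1 list alone rested on medians of 18 fragments in WT and 26 in KO. Of the genes bound in both, 4336 (40.7%) had more KO than WT peaks, 1206 (11.3%) fewer and 5121 (48.0%) the same number. At their starts 8163 genes were bound in both, 168 in WT alone and 1004 in KO alone.

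Polymerase coverage differed with the RUNX1 state of the gene start. Of genes of at least 2 kb with RUNX1 at the start in both lists, 89.6% had S2P in WT over some of their length, against 81.7% for starts bound in KO alone, 54.7% for those bound in WT alone and 16.8% for those bound in neither. The median share of the gene under S2P peaks was 29.5% in WT and 31.9% in KO for starts bound in both, and 15.5% and 16.8% for those bound in KO alone, so genes whose start was bound in KO alone had S2P in the WT cells too. For starts bound in WT alone it was 1.53% and 0.82%.

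Off chromosome 5 the genes with the largest excess of KO peaks were already occupied at several sites in WT. Zbtb16, which encodes the PLZF transcription factor, had 18 WT and 33 KO peaks, of which 16 KO peaks were not shared. Runx1 itself had 19 and 30, with 12 unshared KO peaks of 13 to 29 fragments beside a strongest peak of 252 WT (222 to 285) and 261 KO (230 to 295) fragments. Immp2l, a mitochondrial peptidase gene, had 11 and 25, Bcor, a corepressor gene, 13 and 25, and Mtss1, an actin and membrane-binding protein gene, 20 and 32. St7 (16 and 27), Atxn1 (17 and 28) and the NAD kinase gene Nadk2 (6 and 16) followed. At Bcor the strongest summit held 66 and 91 fragments, and at the others the strongest summits of the lists differed by a smaller ratio.

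Genes with fewer KO peaks showed smaller differences, apart from Plxnc1. Plxnc1, a semaphorin receptor gene, had 11 WT peaks over 134 kb and 1 KO peak. Its 10 WT-only peaks held 17 to 75 fragments, and the background at the WT peaks had a median of 3.55 fragments. Stim1, the calcium sensor gene, had 12 and 7 peaks, but only 3 of its WT peaks were unshared. Ctbp2, a corepressor gene, had 5 weak WT peaks (13 to 28 fragments, median 15) and 1 KO peak of 15 fragments at another place. The share of the gene under S2P was 53.2% in WT and 14.4% in KO. Ndst4 and Nceh1 had 6 and 2 peaks each, and Adarb2, Chrnb1 and Hspb11 had 5 and 1. Unshared WT peaks numbered 3 at Hspb11 and 4 each at Ndst4, Nceh1, Adarb2 and Chrnb1.

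Immp2l stood apart by the fragments at its shared sites, while the median fold enrichment over all its peaks was alike in the 2 lists. Its 11 shared pairs, spread over 856 kb, had a median log2 of 1.20, and the median background was 2.13 fragments at its WT peaks and 3.84 at its KO peaks. Over all its peaks, shared or not, the median fold enrichment was 5.50 in WT (11 peaks) and 5.38 in KO (25 peaks). Of the KO peaks 14 were unshared, with 14 to 44 fragments, so these medians do not compare the shared sites. The share of the gene under S2P was 0 in WT and 0.027% in KO.

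At gene starts, the shared summits with the widest shift toward KO had few WT fragments. The start of Dnajc27, a small GTPase gene (chromosome 12, 4082912 to 4083061, GRCm38 here and throughout), held 9 fragments in WT (4.12 to 17.1) and 41 in KO (29.4 to 55.6), a log2 of 2.16 (1.10 to 3.39) that fell to 0.83 on the fold enrichment, the background being 1.37 in WT and 4.61 in KO. Sfxn1, which encodes the mitochondrial serine transporter, held 21 (13.0 to 32.1) and 62 (47.5 to 79.5), and there the background was alike, 3.86 and 3.57 fragments, and the fold enrichment gave 1.61. Pgap2, a gene of GPI anchor remodelling, held 15 and 51. Cd200r3, a receptor gene of mast cells and basophils, held 20 and 52, Clasp2, a microtubule-binding protein gene, 17 and 44, and Cox6b2, a testis form of a cytochrome oxidase subunit, 14 and 36.

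The shared starts with the widest shift toward WT were fewer and again partly moved with the background. Ccdc102a (chromosome 8, 94917477 to 94917725) held 84 fragments in WT (67.0 to 104) and 26 in KO (17.0 to 38.1), a log2 of -1.72, or -0.38 on the fold enrichment. Ccnb2, the cyclin B2 gene, held 93 and 34 with a background of 24.2 and 8.44, and the log2 of its fold enrichment was -0.01. Fcgr1, an Fc receptor gene of myeloid cells, held 32 and 14 on a background of 2.13 and 1.95, and the log2 was -1.22 on fragments and -1.05 on fold enrichment. Cd3g, a T cell receptor subunit gene, held 42 and 16, Necab1, a neuronal calcium-binding protein gene, 47 and 21, and Ninl, a centrosomal protein gene, 39 and 18.

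Single peaks near gene starts that were found in 1 list alone included some strong ones. For Gzmb, Nlrp6, Gas2 and Sgsm2, named among them, the other list also had a RUNX1 peak within 1 kb of a start of the gene. In KO the strongest by q was Eda2r, the ectodysplasin receptor gene (chromosome X, 97376447 to 97376836), with 55 fragments (41.4 to 71.6) on a background of 2.38. The start shared by Mrps5 and Zfp661, whose sequence is printed above, had 88 (70.6 to 108). The WT list had its only Zfp661 peak, of 53 fragments (39.7 to 69.3), at another listed start of that gene, which the KO list did not hold. Ankrd40 (49), the cytoskeletal gene Gas2 (48), Tsr1, a ribosome maturation gene, with Sgsm2 (68), and, on chromosome 5, Brap with Acad10 (84) completed the KO set. In WT the strongest was Lca5, a ciliary gene (chromosome 9, 83441073 to 83441327), with 95 fragments (76.9 to 116) on a background of 5.68. Gzmb, the granzyme B gene, had 40, Nr3c2, the mineralocorticoid receptor gene, 34, Acot3, an acyl-CoA thioesterase gene, 40, Nlrp6, an inflammasome gene, 53, and Tmsb10, the thymosin beta-10 gene, 26.

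Away from starts the shifts were wider. The sites in this paragraph have at least 60 fragments in 1 list and were chosen by a rule set after the values were seen. In Piezo2, which encodes a mechanosensitive channel, a site held 23 fragments in WT (14.6 to 34.5) and 148 in KO (125 to 174), a log2 of 2.66 on fragments and 1.01 on fold enrichment, with a background of 3.55 and 13.0. A neighbouring Piezo2 site held 23 and 85. In Dym, a Golgi protein gene, a site held 25 and 105. Sites in Immp2l (20 and 63), Plxdc2 (31 and 90) and Cd274, the PD-L1 gene (31 and 90), followed. The site in Plxdc2 had a lower background in KO (2.84 and 2.30), and its fold enrichment differed by a log2 of 1.73.

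The opposite shift was widest in Rnf180, a ubiquitin ligase gene (chromosome 13, 105139877 to 105140254), with 82 fragments in WT (65.2 to 102) and 15 in KO (8.40 to 24.7). Its log2 was -2.47 on fragments and -0.83 on fold enrichment. In Gng12, a G protein subunit gene, a site held 79 and 21 on a background of 8.53 and 6.91, and the fold enrichment gave -1.59. Sites in Zfp704 (66 and 17), the phosphodiesterase gene Pde4d (69 and 19), Bcl3 (82 and 24) and Gulp1 (64 and 19) had KO backgrounds of 1.39 to 1.62 against 3.55 to 5.68 in WT. Over all 437 pairs at least 2-fold higher in KO the background was the higher in KO at 316, and over the 255 at least 2-fold lower it was the lower at 204. Over all 21194 pairs off chromosome 5 with at least 20 fragments in either list it was higher in KO at 11369 and lower at 9825. The fold enrichment kept the direction in 422 of the 437 and 236 of the 255, and in 68.8% of all 21194. It contains the fragment count by which the 437 and 255 were chosen, so a high share is partly built in. Across the 22009 pairs, which share their libraries, Pearson's r between the log2 of fragments and of background was 0.25.

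**Figure D3:**
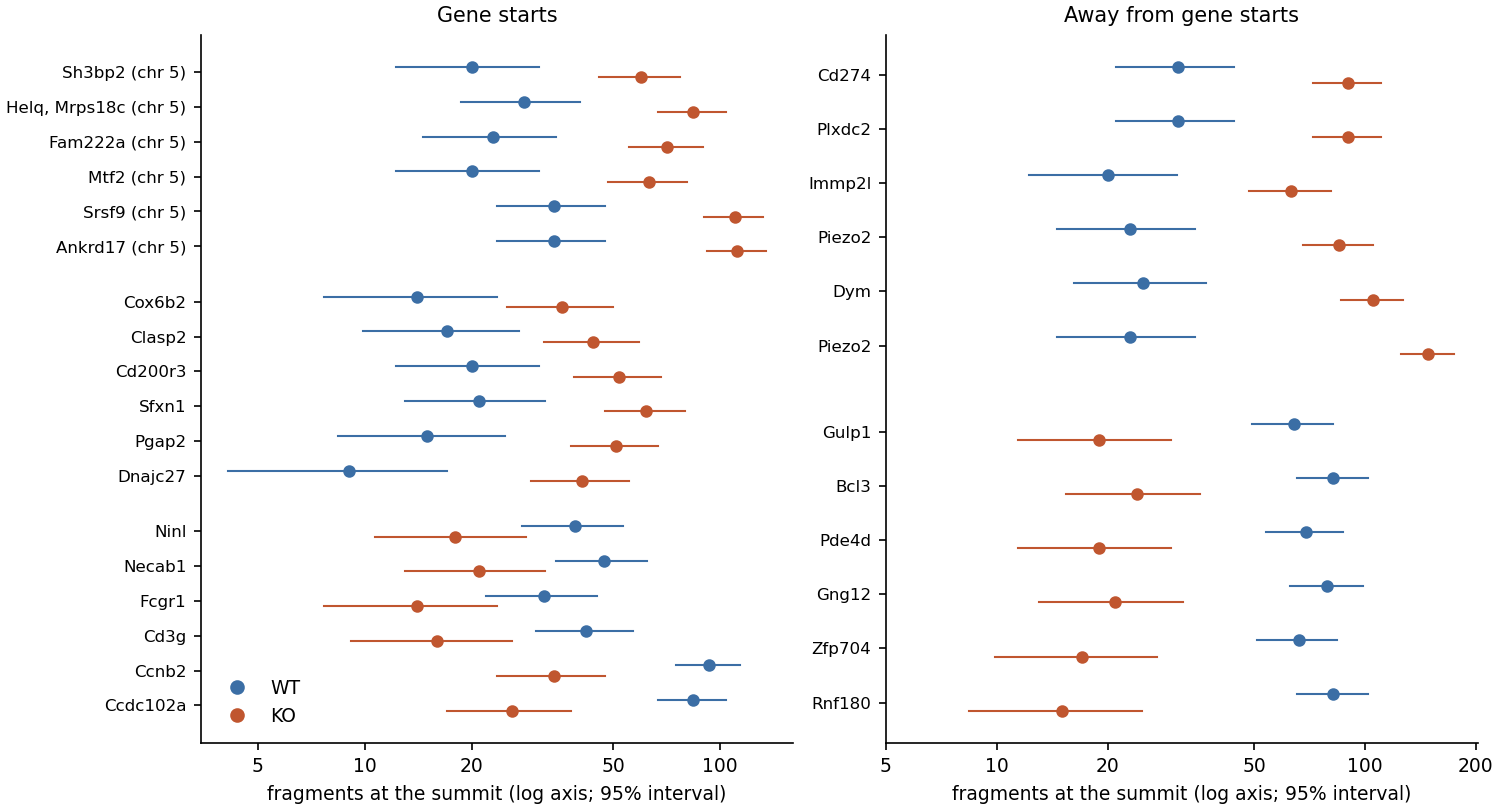
Fragments at the summit (log axis) with exact Poisson 95% intervals in WT and KO, for the shared sites with the widest shifts at gene starts (left; the upper block is chromosome 5) and away from them (right). The largest gap is at Piezo2, with 23 and 148 fragments, and the intervals of WT and KO overlap only at Fcgr1 and Ninl.

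Among the lists of functionally related genes, erythroid regulators held the most RUNX1 peaks per gene. All 25 erythroid transcription factor genes were bound in both genotypes, with 182 WT and 253 KO peaks. Counted per gene, the KO to WT peak ratio was 1.39, against 1.24 over all coding genes. The ratio was not highest here: it was 1.47 for cell cycle, 1.48 for housekeeping and 1.54 for cytosolic ribosomal protein genes. Myeloid genes, with 13 WT peaks, also gave 1.54. Of the 25 genes 23 had more KO peaks and 1 fewer, where 40.7% and 11.3% of all genes bound in both did. These shares were not matched for peaks per gene, and equal numbers are less likely at genes with many peaks. Strong sites lay at Nfe2, the gene of a globin-activating factor (245 WT and 268 KO fragments), the globin repressor gene Zbtb7a (231 and 243), Zfpm1, the gene of the GATA1 cofactor FOG1 (215 and 247) and Bcl11a, a repressor of fetal globin (198 and 228). Nfe2 was the gene with fewer peaks (6 and 5). The median log2 of their 156 pairs off chromosome 5 was 0.25, against 0.17 over all such pairs. For this and the following lists, peak numbers include genes on chromosome 5, and median log2 values leave that chromosome out. Centring the lists on all shared summits lowers each such median by that 0.17.

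Of the 13 genes of the RUNX family and its partners 10 were bound in both and 3 (Runx3, Runx1t1 and Tle1) in neither, with 63 WT and 87 KO peaks, 7 genes with more and 1 with fewer. Cbfa2t3, the ETO2 corepressor gene, held 237 and 262 fragments at its strongest site. Cbfb had 1 WT peak of 25 fragments and 4 KO peaks of at most 27. Tle3, a Groucho corepressor gene, was the one with fewer (9 and 5). Of the 9 CHD remodeller genes 7 were bound in both, Chd5 in KO alone (1 peak of 24 fragments) and Chd7 in neither, and Chd2 was the strongest (153 and 182).

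Of all coding genes 48.7% were bound in both genotypes, against which the lists of the mature red cell can be read. All 18 heme synthesis and transport genes were bound in both (58 WT and 72 KO peaks), led by Glrx5, needed for iron-sulfur clusters (227 and 266 fragments), and by Uros and Cpox of the heme pathway (203 and 239, 197 and 219). All 14 iron genes were bound in both (59 and 65 peaks; median log2 0.11), led by Fth1, the ferritin heavy chain gene (243 and 262). Of 24 red cell membrane genes 21 were bound in both and Tmod1, the tropomodulin gene, in WT alone, with 2 peaks of up to 70 fragments. Their peaks numbered 108 and 144. Of 10 globin genes 5 were bound in both and 5 in neither, with 10 WT and 8 KO peaks, and Hbb-bt held 78 and 88 fragments at its strongest. The alpha globin genes are near-identical copies, so their reads may be split between them. Ahsp was not matched.

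Signalling genes and those of polymerase pausing had KO to WT peak ratios below that over all genes, and cell cycle genes one above it. Counted per gene, that ratio was 1.24 over all coding genes, 1.16 for signalling, 1.06 for pausing and elongation and 1.47 for the cell cycle. All 18 genes of cytokine receptor and survival signalling were bound in both (89 and 103 peaks; 10 genes with more and 2 with fewer). The strongest was Bnip3l, a mitophagy gene of maturing red cells (190 and 224 fragments), and Epor, the erythropoietin receptor gene, held 164 and 172. Socs2, an inhibitor of cytokine signalling, had 38 and 82 fragments at its strongest site. Of 28 cell cycle genes 26 were bound in both, with 96 and 141 peaks, 18 with more and 2 with fewer, led by Cdk2 (209 and 238) and Top2a (208 and 219). All 24 polymerase pausing and elongation genes were bound in both, with 83 and 88 peaks and 6 genes each way.

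Cytosolic ribosomal protein genes had a KO to WT peak ratio of 1.54, while that of the mitochondrial ones, 1.23, was close to the 1.24 of all genes. Of 77 cytosolic ribosomal protein genes 74 were bound in both and 3 (Rpl37a and, on chromosome 5, Rpl5 and Rpl6) in KO alone. Their peaks numbered 134 in WT and 207 in KO, with 5 of the 77 genes on chromosome 5. Of the 77 genes 49 had more KO peaks and 4 fewer, and the median log2 off chromosome 5 was 0.32. Rpl19 (221 and 238 fragments) and Rpl22 (216 and 248) held the most, and Rpl5 had 79 in KO. Of 78 mitochondrial ribosomal protein genes 70 were bound in both and 7 in KO alone (Mrpl11, Mrpl13, Mrpl36, Mrpl42, Mrps2, Mrps21 and Mrps22, with 29 to 36 fragments), with 119 and 146 peaks. Of the 78 genes 25 had more KO peaks, among them the 7 bound in KO alone, and 5 fewer. The 25 thus cannot be set beside the 40.7% of all genes bound in both that had more. Over all genes 3.99% were bound in KO alone. Of 31 proteasome genes 29 were bound in both and Psmd6 in KO alone (56 and 73 peaks), and of 67 histone genes, which lie in clusters and share peaks, 60 and H4c11 (163 and 208). All 22 housekeeping genes were bound in both (66 and 98 peaks).

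The lists of other blood lineages lay on both sides of the share of all genes bound, 50.1% in WT and 52.7% in KO. Stem and progenitor genes (36.4% in each), myeloid genes (33.3% and 38.9%) and lymphoid genes (45% in each) were below it, and megakaryocyte genes (60% and 55%) and mast cell genes (53.3% and 60%) above it. Of 22 stem and progenitor genes 7 were bound in both, with Cd34 in WT alone (12 fragments) and Bmi1 in KO alone (23), 73 and 87 peaks in all, led by the adhesion receptor gene Adgrg1 (229 and 260) and the ETS factor gene Erg (194 and 239). Of 20 megakaryocyte genes 11 were bound in both and Treml1 in WT alone (20 fragments), with 36 and 35 peaks. Of 15 mast cell genes 8 were bound in both and Hdc, the histidine decarboxylase gene, in KO alone (22), with Gzmb the strongest (210 and 181), and Tpsab1 was not matched. Of 18 myeloid genes 6 were bound in both and Fcgr3 in KO alone (33), and Cebpb, a granulocyte factor gene, had 1 WT peak of 50 fragments and 5 KO peaks of up to 105. Of 20 lymphoid genes 9 were bound in both, with 23 and 19 peaks, 1 with more and 5 with fewer. Of 24 genes of tissues other than blood 2 were bound in both and 2 in WT alone (Olig2 and Col2a1, with 17 and 12 fragments).

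**Figure D4:**
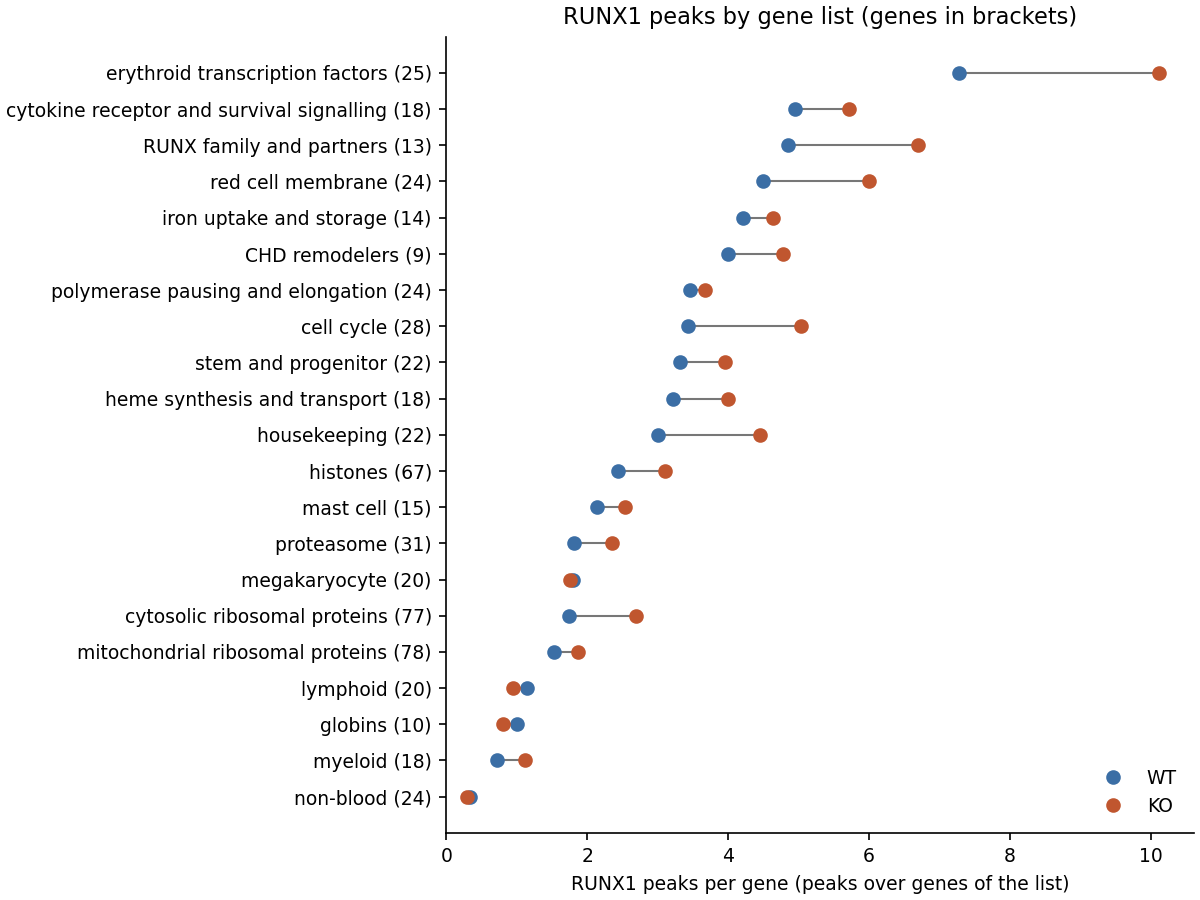
RUNX1 peaks per gene (x axis) in WT and KO for each gene list (y axis, number of genes in brackets). Erythroid transcription factor genes are highest and have the widest gap, while the lymphoid, globin, megakaryocyte and non-blood lists have fewer KO than WT peaks.

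Chromosome 5 stood apart from the other chromosomes in peak number, fragments and background. Its peaks numbered 1849 in WT and 2485 in KO, a ratio of 1.34 (1.26 to 1.43), where the 19 other chromosomes without Y gave 1.18 to 1.26. The median log2 of its 1551 shared pairs was 0.56 (0.54 to 0.58) on fragments, against 0.13 to 0.19, and KO was the higher in 90.4% of pairs, against 65.6% to 72.7%. The local background moved with it, with a median log2 of 0.53 (0.52 to 0.57) against 0.01 to 0.11. On the fold enrichment, which divides by that background, chromosome 5 had a median log2 of 0.09 (0.06 to 0.12) against 0.10 to 0.17, so it was not above the other chromosomes. What part the background has in the fragment shift was not tested, nor was whether the lines carry the same number of copies of chromosome 5. Y had 23 WT and 36 KO peaks and 17 pairs, too few to place.

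The shift ran along the whole chromosome. In 15 of its 16 stretches of 10 Mb, those with at least 20 pairs, the background log2 lay between 0.43 and 0.70, and the last stretch, with 12 pairs, gave 0.11. Over 237 such stretches of other chromosomes it lay between -0.23 and 0.35. The fragment log2 lay between 0.11 and 0.77, its lowest value in a stretch of 21 pairs. By position, chromosome 5 had 0.64 (0.61 to 0.68) at gene starts and 0.51 (0.46 to 0.56) in gene bodies.

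**Figure D5:**
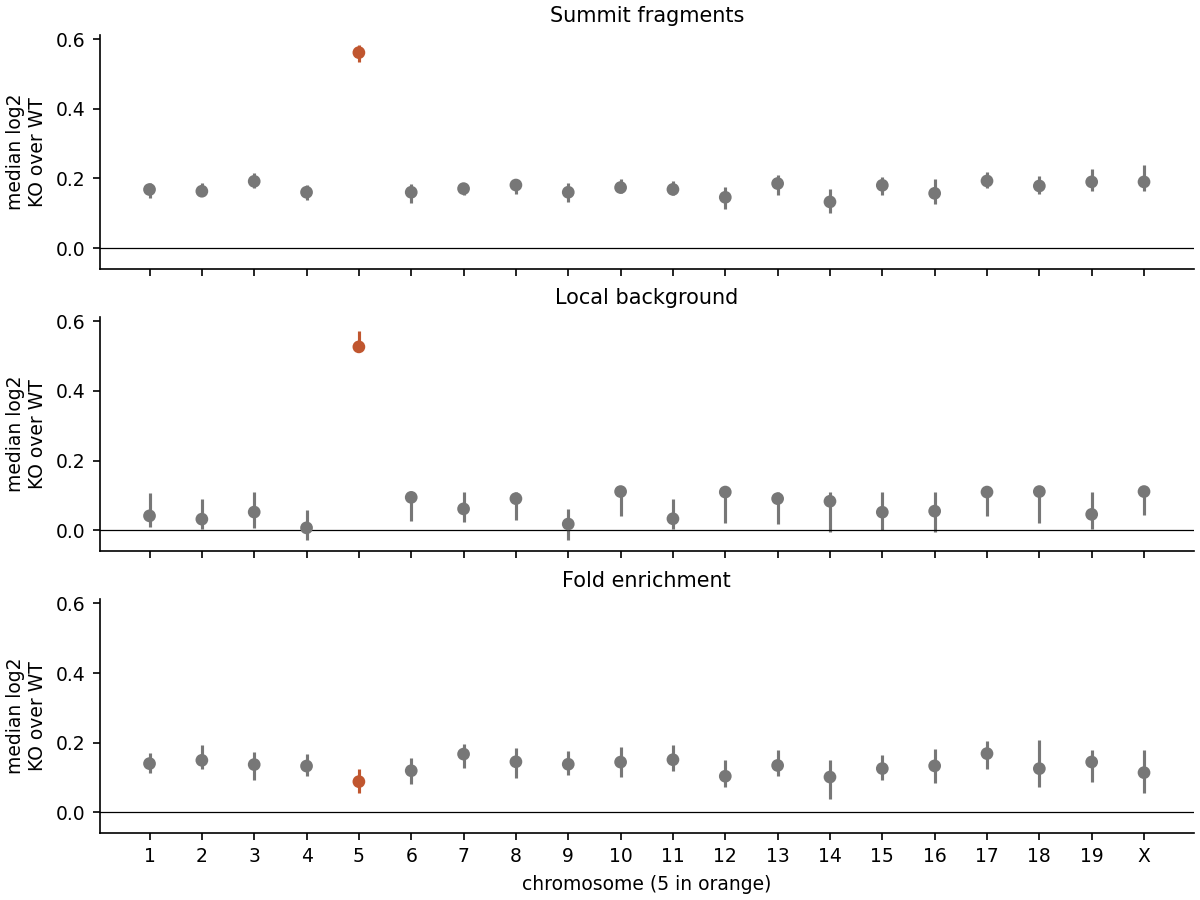
Median log2 of KO over WT at shared summits with its 95% interval (y axis) by chromosome (x axis; Y left out), for summit fragments, local background and fold enrichment. Chromosome 5 (orange) stands at 0.56 and 0.53 in the upper panels and at 0.09 in the lowest.

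Sharing on chromosome 5 was shifted the same way. Of its WT peaks 90.2% were shared, against 82.3% to 88.6% elsewhere, and of its KO peaks 65.4%, against 67.4% to 71.6%. Of its 1522 pairs with at least 20 fragments in either list, 13.7% were at least 2-fold higher in KO and 0.394% at least 2-fold lower. Of 1269 genes on it 674 were bound in both, 15 in WT alone and 57 in KO alone.

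The chromosome 5 genes named first were chosen for the largest excess of KO or of WT peaks, so the direction of their peak numbers is fixed by that choice. Pcdh7, a protocadherin gene, had 23 WT and 32 KO peaks, Cyth3, an ARF exchange factor gene, 12 and 20, Tnrc18 6 and 14, and Auts2, a neurodevelopmental gene, 14 and 21, the last with a median log2 of 1.01 over 14 pairs. Pitpnm2 (9 and 16), the ataxin gene Atxn2 (1 and 7), the Mediator kinase gene Cdk8 (1 and 7) and Usp46 (5 and 11) followed. Fewer KO peaks were seen at Rad9b (4 and 1), Ssh1 (5 and 2), Amz1 and Upk3b (2 and 0 each), and at Cldn15, Fras1, Ncf1 and Sorcs2 (3 and 1 each). Only 2 of the 4 WT peaks were unshared at Rad9b and 1 of 3 at Ncf1. The strongest peak held more KO fragments at Rad9b (65 and 89), Ncf1 (37 and 66) and Fras1 (22 and 60). The strongest peak held fewer KO fragments at Ssh1 (51 and 15), Sorcs2 (31 and 20) and Cldn15 (45 and 31), whose single shared pairs had a log2 of -1.25, -0.66 and -0.56. Kit, the stem cell factor receptor gene, had 9 and 12 peaks with 94 and 148 fragments at the strongest, and Cdk6 had 15 and 21 with 171 and 216.

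At single starts on chromosome 5, Ankrd17 (90366529 to 90366844) held 34 fragments in WT (23.5 to 47.5) and 112 in KO (92.2 to 135), with a background of 6.40 and 13.0. Srsf9, a splicing factor gene, held 34 and 110 with a background of 7.32 and 8.87, and its log2 was 1.67 on fragments and 1.42 on fold enrichment. Mtf2, a Polycomb partner gene, held 20 and 63, Fam222a 23 and 71, the start of Helq and Mrps18c 28 and 84, and Sh3bp2 20 and 60. The 6 sites with the most WT fragments held 226 to 272 in WT and 261 to 282 in KO. They lay at Por, the cytochrome P450 reductase gene (272 and 282), Rita1 with Ddx54, Eif2ak1 (the heme-regulated kinase gene) with Ankrd61, Orai2, Evi5, and Git2 with Ankrd13a, all near the ceiling. A KO-only peak near Naa11 (97397437 to 97397925), named after its value was seen, held 135 fragments (113 to 160) on a background of 5.37.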

How the data were processed

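The submitters' processing notes name the aligner Bowtie2 (2.2.1), the peak caller MACS2 (2.1.0) and the build GRCm38, also called mm10, and the settings are not given in the sources used here. For each peak the authors deposited a score (10 times the −log10 q), a fold enrichment (the ratio of summit pileup to local background), −log10 p, −log10 q and the summit offset, and the lists end at a q of 0.05. Which input served which list, and how the 2 S2P replicates of a genotype were combined, are not given in the sources used here. The labels give chromatin of 500 bp on average, 18 PCR cycles and gel selection at 150 to 300 bp, and the total number of reads is not known from these files.

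Summit fragments and background were solved from the fold enrichment and the −log10 p that the authors deposited, under the Poisson model of the caller. Whole numbers came out for 99.99% of WT and 99.97% of KO peaks (recomputed −log10 p within 0.005), against 3.35% and 3.34% at a wrong scale of 0.93. The median background was 5.68 fragments in WT and 5.41 in KO. KO was compared with WT after division by the lowest background of each list, 1.37 and 1.39 fragments. Genes and starts came from the RefSeq tables of GRCm38.p6: 17492 of 21887 coding genes had a listed start, and for the other genes either end counted. For S2P, the percentage of the gene length lying under peaks was used.

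Sites and genes were named by fixed rules. In each gene list these were the genes bound in 1 genotype and up to 4 of the strongest. Across genes they were the 8 with the largest difference in peak number each way. Among shared starts with at least 20 fragments in either list they were the 6 with the highest and lowest log2. Further rules took the 6 strongest unshared peaks near gene starts by q, and the 6 strongest shared sites of chromosome 5. Predicted genes were passed over. Cbfb, Tle3, Socs2, Cebpb and Kit, and sites away from starts, were named after their values were seen. The members, lists and rules were chosen with earlier results of these data known. Scripts used Python 3.11.15, NumPy 2.4.6, pandas 2.3.3 and SciPy 1.17.1 and were tested on simulated lists.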

Additional observations from a re-analysis of the deposited data

How the results depend on the processing

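Shares and medians are given against the value in the report, in the order of the settings tried. Requiring an overlap of 50% of both peaks gave 76.5% of WT and 62.8% of KO peaks shared, summits within 100 bp 80.7% and 66.2%, and a KO list cut to the WT number 80.9% and 79.0%, with 478 genes in WT alone and 586 in KO alone. At a −log10 q of at least 5 the KO share was 72.0% and the peak ratio 1.18. At 10 the shares were 88.2% and 73.7%, the ratio 1.18, and the shares at gene starts 35.0% (WT), 36.4% (KO), 14.2% (WT-only) and 33.5% (KO-only). With starts taken within 500 bp these were 27.3%, 26.3%, 6.51% and 17.6%, within 2 kb 36.5%, 37.8%, 15.8% and 35.0%, and with either outer end of every gene, a choice made after seeing the data, 29.5%, 30.2%, 10.4% and 25.9%. WT and KO thus changed order within 500 bp.

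The median log2 off and on chromosome 5 was 0.20 and 0.58 without scaling, 0.14 and 0.088 on the fold enrichment, 0 (by construction) and 0.39 after centring on the shared summits, and 0.18 and 0.60 without the strongest 10% of WT peaks. After centring, the median away from gene starts reversed to -0.051, while that at starts was 0.08. With summits inside genes only, 6595 genes were bound in both, 554 in WT alone and 1551 in KO alone. TGTGGT alone stood in 11.9% of the promoters bound in both. Leaving out chromosome 5 moved no share, ratio or gene count beyond its interval or by 1.5 times.

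No paired analysis was possible because each genotype had 1 RUNX1 library. Depth limits the weak peaks: those of 1 list alone have few fragments, and the ceiling of 286 WT and 282 KO fragments limits the strongest.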

Other observations

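RUNX1 sites away from gene starts mostly coincided with GATA2, and those at starts mostly did not. Of WT RUNX1 peaks away from starts 71.6% (71.0 to 72.3) overlapped a WT GATA2 peak, and of KO peaks 68.3% (67.7 to 68.9) overlapped a KO GATA2 peak. For the peaks found in 1 RUNX1 list alone these shares were 59.3% (57.6 to 60.9) in WT and 52.4% (51.2 to 53.5) in KO. At starts they were 15.5% (14.8 to 16.3) in WT and 18.9% (18.1 to 19.6) in KO, and 20% (16.2 to 24.3) and 17.3% (16.0 to 18.7) for the peaks of 1 list alone. The GATA2 and RUNX1 lists rest on different libraries of the same lines, and peaks are not replicates.

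A few unshared peaks had many fragments. The WT list held 29 WT-only peaks with more than 120 fragments, 22 of them on chromosome 9, and all sat on a background of at least 111 fragments with a fold enrichment of at most 1.61. The KO list held 7 such KO-only peaks, with a median fold enrichment of 1.40. The site near Naa11 on chromosome 5 had 21.3, and one in Cdk8 had 1.95 on a background of 61.4 fragments.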
